A study of Mus musculus with 4 samples.

Results

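Dystrophin and the proteins bound to it form a bridge through the membrane of the heart muscle cell. The 8 genes described here encode dystrophin (Dmd), its relative utrophin (Utrn), dystroglycan (Dag1), the sarcoglycans alpha, beta and delta (Sgca, Sgcb and Sgcd), sarcospan (Sspn) and alpha-dystrobrevin (Dtna). They were chosen with earlier results of these data known. Their probes were taken by name, as every probe whose gene name in the array files equals 1 of these 8 symbols. That gave 32 probes of 56605 on the array and 8 of 37008 gene names. The number of probes was 10 for Dmd, 8 for Utrn, 5 for Dtna, 4 for Sgcd, 2 for Sgca and 1 each for Dag1, Sgcb and Sspn.

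Hearts of female *C57BL/6J* mice, 6 weeks old in the sample labels and younger in the study's methods, were measured on 4 single-colour arrays, 1 per condition. Control mice received normal saline (NS). Treated mice received 400 mg/kg of cyclophosphamide (CY), 5 mg/kg of acrolein, or 200 mg/kg of N-acetyl cysteine before 400 mg/kg of CY (NAC + CY). All were injected into the peritoneum on 2 successive days, and the heart was taken 3 h after the last dose. CY is an alkylating anticancer drug, acrolein is one of the breakdown products it yields in the body, and NAC is a thiol that binds acrolein. The labels mention 3 independent studies, but they do not say how many animals stand behind an array. Since every condition has 1 array, no difference below could be set against replicate error, and none carries a p-value. In RNA from whole heart tissue, fewer cells of a type and less RNA per cell cannot be told apart.

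Dystrophin binds the actin cytoskeleton at one end and dystroglycan at the other. Dystroglycan spans the membrane and holds laminin in the matrix outside, through sugar chains that a set of Golgi enzymes builds on it. The sarcoglycans and sarcospan form a smaller complex in the membrane that steadies this link, and dystrobrevin and the syntrophins bind dystrophin from inside and carry signalling proteins. Utrophin has the same partners and is found at higher levels in immature muscle. Loss of dystrophin or of delta-sarcoglycan leads to muscular dystrophy with cardiomyopathy.

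The probes are 60-base oligonucleotides, and 7 of them are printed here 5′ to 3′ in lower case, from the array files with their positions on mouse build mm9. They are shown to place the measurement on the coding part of the transcripts, which was judged from textbook knowledge of their coding lengths, not from an annotation. Of the 7, Dmd 4942, Utrn 7910 and Sgcd 467 were called for CY against NS, and the others were not. The brightest probes of Dmd, Utrn and Sgcd, which give the folds below, lie closer to the 3′ end, in what was judged in the same way to be untranslated sequence, and are not printed. The printed probes of Dmd lie on the forward strand of chromosome X at chrX:81132417-81132476 and chrX:82389391-82389450. The printed probes of Utrn lie on the reverse strand at chr10:12453709-12453768, chr10:12221228-12221287 and chr10:12125761-12125820. The printed Sgcd probe lies on the reverse strand at chr11:46939058-46939117 and that of Sgca at chr11:94824546-94824605. The longest run of bases shared by any of 80 pairs of a Dmd and a Utrn probe, on either strand, was 10 bases. Each name is followed by the position of the probe in its RefSeq transcript.
Dmd 4942: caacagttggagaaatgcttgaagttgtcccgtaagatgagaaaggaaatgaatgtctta
Dmd 10335: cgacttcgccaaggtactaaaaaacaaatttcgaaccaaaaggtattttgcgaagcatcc
Utrn 1631: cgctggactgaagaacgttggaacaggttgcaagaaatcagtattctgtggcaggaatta
Utrn 7910: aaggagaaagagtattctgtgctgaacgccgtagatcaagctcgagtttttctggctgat
Utrn 9979: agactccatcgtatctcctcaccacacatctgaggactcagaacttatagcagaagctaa
Sgcd 467: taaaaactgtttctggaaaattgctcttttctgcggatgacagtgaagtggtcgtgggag
Sgca 1344: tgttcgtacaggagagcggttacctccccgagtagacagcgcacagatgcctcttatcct

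The values are log2 signals, which are the quantile-normalised processed signals of a probe on 1 array, log2 ratios, which are differences of 2 log2 signals of the same probe, and Z-scores. A Z-score sets a log2 ratio against the mean and SD of the 200 probes closest to it in signal, and that SD is called the window SD below. Probes with a present flag on 1 or both arrays of a comparison were kept. A probe was called lower if its Z-score reached -2 or less and its ratio 0.66 or less, and called higher if they reached 2 and 1.5 or more. A gene is given by its brightest flagged probe. The 8 genes were counted as called if any of their kept probes was, and so were all genes in the shares beside them. Genes of the span classes, pathway lists and marker lists were counted by the brightest probe alone. Of the 32 probes, 23 were flagged on at least 1 array, 18 on all 4 and 9 on none. All 8 genes had a probe well above background on all 4 arrays. The label of heart tissue was checked with 14 cardiomyocyte marker genes, which were all well above background on all 4 arrays too.

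In the CY-treated heart, Dmd, Utrn and Sgcd were called lower than in NS, and the other 5 genes were not called. Dmd was 2.69-fold lower, Utrn 2.18-fold and Sgcd 3.04-fold by the brightest probe. The 3 called genes make up 3 of the 8, where 3.15% of all 19712 measured genes were called lower, and none of the 8 was called higher, where 3.66% were. Since the 8 genes were chosen with earlier results of these data known, such shares are a description and not a test. By probes, 6 of 21 kept were called lower, 2 each for Dmd, Utrn and Sgcd, against 2.55% of all kept probes. The median log2 ratio of the 8 genes was -0.50, against -0.02 over all genes. At a stricter Z-score of 3, Sgcd alone of the 8 was called. Utrn also lost its call with 1 SD over all probes in place of the window, which left 2 genes, and by the median over its probes.

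**Figure D1:**
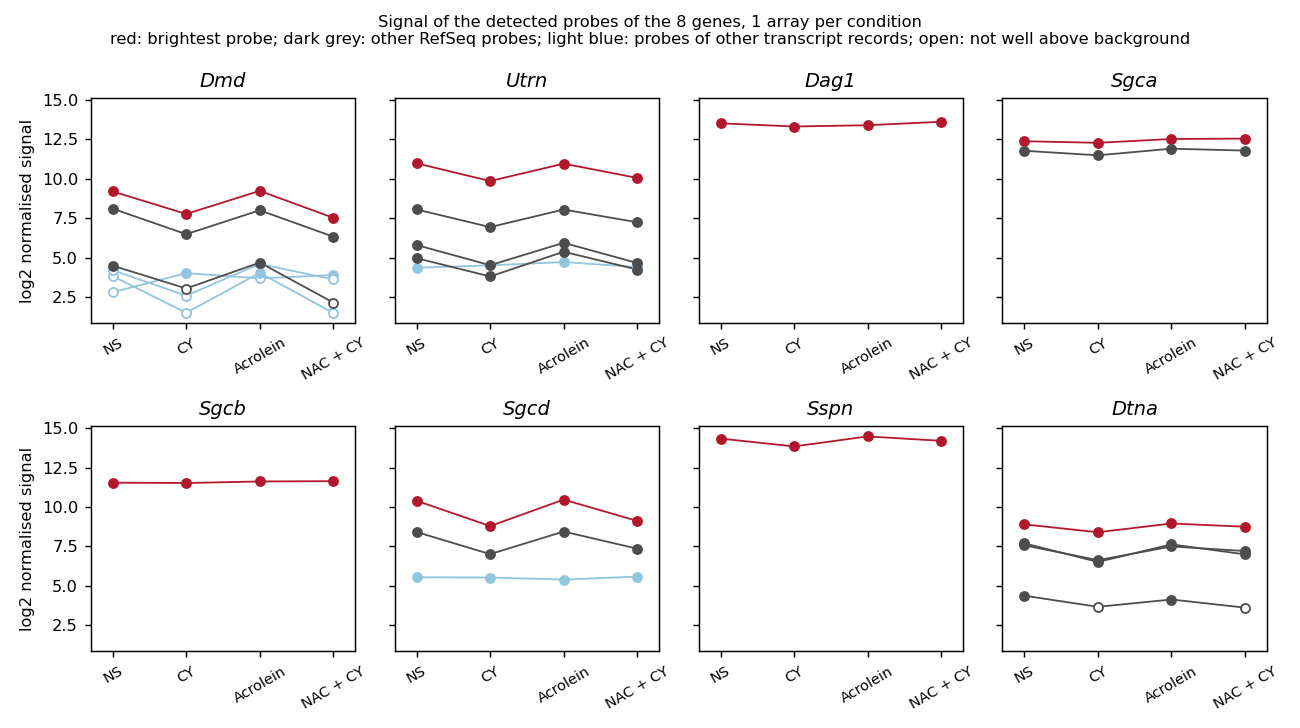
log2 normalised signal (vertical axis) of the 23 detected probes of the 8 genes on the NS, CY, acrolein and NAC + CY arrays (horizontal axis), 1 panel per gene and 1 line per probe. Red marks the brightest probe, dark grey other RefSeq probes and light blue probes of other transcript records, and open points were not well above background. The Dmd, Utrn and Sgcd lines in red and dark grey drop at CY and NAC + CY, as from 10.39 to 8.79 and 9.12 for Sgcd, and the Sgcb line stays between 11.52 and 11.64.

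Dmd encodes the dystrophin protein that gives the complex its name. Its brightest probe, at position 13165 of the transcript, had log2 signals of 9.19 (NS), 7.77 (CY), 9.23 (acrolein) and 7.53 (NAC + CY). The acrolein array stood at the level of NS, and both arrays with CY lay below. The log2 ratio was -1.43 for CY (Z-score -2.66) and -1.67 for NAC + CY (Z-score -2.48), a 3.18-fold difference, and 0.04 for acrolein.

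The Dmd probe at position 4942, in the part that encodes the long rod of the protein, gave the same picture. Its log2 signals were 8.10, 6.48, 8.0 and 6.33 on the NS, CY, acrolein and NAC + CY arrays. The log2 ratio was -1.62 for CY (Z-score -2.79), -1.77 for NAC + CY (Z-score -3.27) and -0.10 for acrolein. Dmd has promoters inside the gene from which shorter proteins are made, and the probe in the rod lies upstream of most of these, whereas the probe near the 3′ end lies in sequence that the long and most short forms share. The probes are 8223 bases apart in the transcript and 1317 kb apart in the genome, and their log2 ratios for CY differed by less than the window SD of either, 0.59 and 0.54.

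The remaining RefSeq probe of Dmd, at position 10335 in the region that encodes the C-terminal part, was dim. Its log2 signals were 4.49 on NS and 4.68 on acrolein, and it was not well above background on CY and NAC + CY. Its folds were therefore taken against the lowest signal well above background on those arrays, which is a reference level and not a strict limit. They were 1.75-fold lower for CY, where it was not called, and 1.79-fold lower for NAC + CY, where it was called. Of the other 7 Dmd probes, which belong to predicted or Ensembl transcript records, 4 were flagged on no array. The remaining 3 never exceeded a log2 signal of 4.60, were flagged on 1 or 2 arrays each and were called in no comparison. The probe of ENSMUST00000128983 was flagged on CY and NAC + CY only, at log2 signals of 4.02 and 3.90.

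Utrn was represented by 4 RefSeq probes that were well above background on all 4 arrays. The brightest, at position 12304, had log2 signals of 10.98, 9.86, 10.96 and 10.06 on NS, CY, acrolein and NAC + CY. The acrolein array matched NS here as well, and NAC + CY stood slightly above CY. The log2 ratio was -1.12 for CY (Z-score -2.46), -0.92 for NAC + CY (Z-score -2.15) and -0.02 for acrolein.

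The other Utrn probes lie towards the 5′ end. The probe at position 1631 had log2 signals of 8.05, 6.93, 8.05 and 7.24, that at 7910 had 5.80, 4.52, 5.94 and 4.66, and that at 9979 had 4.96, 3.80, 5.37 and 4.25. All 3 were lower on both arrays with CY than on NS. For CY the 4 probes spanned log2 ratios from -1.28 to -1.12, with a mean of -1.17 and an SD of 0.07, over 10673 bases of transcript and 352 kb of genome. For NAC + CY they spanned -1.14 to -0.72 with an SD of 0.18. The probe at 7910 was called for CY (Z-score -2.03), while those at 1631 and 9979 missed the Z-score limit at -1.71 and -1.64.

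1 probe named Utrn did not share the pattern. It belongs to the transcript record AK020881 and lies 15 bases from the probe at 7910 in the genome, on the same strand. Its log2 signals were 4.36, 4.51, 4.72 and 4.40, and its log2 ratio for CY was 0.15, whereas that of its neighbour was -1.28. It was dim, with log2 signals not far above the lowest that counted as well above background, 4.04 on NS and 3.65 to 3.68 on the other arrays.

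**Figure D2:**
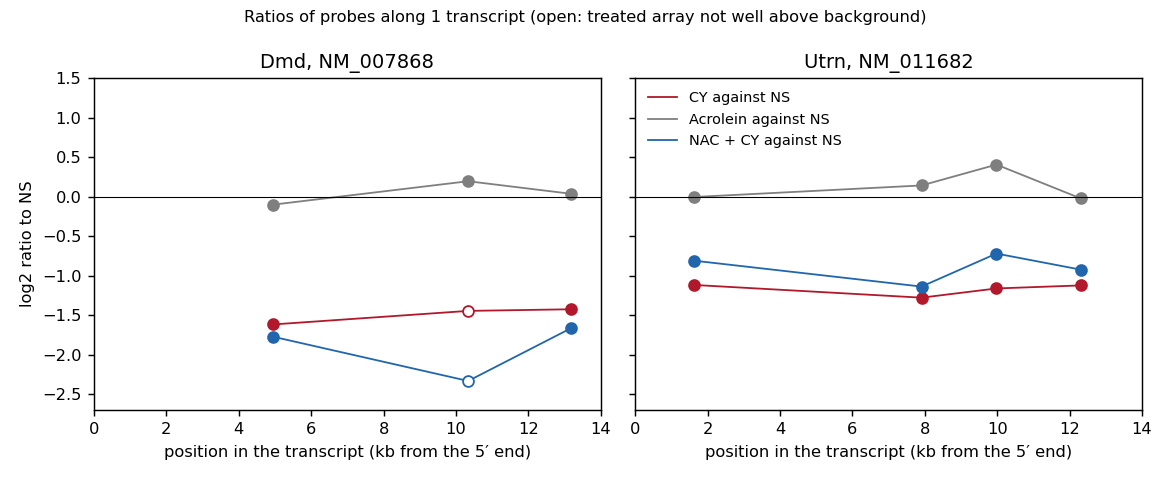
log2 ratio to NS (vertical axis) of the RefSeq probes of Dmd (left) and Utrn (right) by position in the transcript in kb from the 5′ end (horizontal axis), for CY (red), acrolein (grey) and NAC + CY (blue). Open points are probes not well above background on the treated array. The CY points of Utrn lie between -1.28 and -1.12 along the whole transcript, and the acrolein points lie between -0.10 and 0.41.

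Dag1, which encodes both parts of dystroglycan, differed little between the arrays. Its 1 probe had log2 signals of 13.52, 13.32, 13.40 and 13.62 on NS, CY, acrolein and NAC + CY. The log2 ratios to NS were -0.20, -0.12 and 0.10, and none was called.

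The sarcoglycans did not move together. Sgcd was lower in CY, while Sgca and Sgcb, which encode its partners in the same membrane complex, were not called. The brightest Sgcd probe, of a predicted RefSeq transcript, had log2 signals of 10.39 (NS), 8.79 (CY), 10.47 (acrolein) and 9.12 (NAC + CY). Both arrays with CY lay below the other pair by more than 1 log2 unit. Its log2 ratio was -1.60 for CY (Z-score -3.08), the lowest of the 8 genes, -1.27 for NAC + CY (Z-score -2.18, 2.42-fold lower) and 0.08 for acrolein.

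The Sgcd probe in the coding sequence, at position 467, had log2 signals of 8.41, 7.01, 8.45 and 7.36. It was called lower for CY at -1.40 and for NAC + CY at -1.05. Another Sgcd probe, of the record ENSMUST00000154578, lies 226 kb further 5′ in the gene and had log2 signals of 5.55, 5.53, 5.40 and 5.59. It was well above background on all 4 arrays and its log2 ratio for CY was -0.02. The last Sgcd probe was flagged on no array.

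Sgca had log2 signals of 12.38, 12.28, 12.53 and 12.55 by its coding probe and 11.78, 11.49, 11.91 and 11.79 by the other. Sgcb had 11.55, 11.52, 11.62 and 11.64. The log2 ratio for CY was -0.10 for Sgca and -0.02 for Sgcb, and for NAC + CY it was 0.17 and 0.10. These stand beside -1.60 and -1.27 for Sgcd.

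Sspn, the small membrane protein that joins the sarcoglycans, had log2 signals of 14.34, 13.84, 14.48 and 14.20. The CY array was the lowest of the 4, and the log2 ratio of -0.50 was not called (Z-score -0.83). For Dtna, which binds dystrophin in the cytoplasm, the brightest probe had log2 signals of 8.90, 8.40, 8.96 and 8.75 and a log2 ratio for CY of -0.50 (Z-score -1.0). Its probes did not move by the same amount: that of NM_001285811 had log2 signals of 7.70, 6.52, 7.63 and 7.00, with a log2 ratio of -1.18 (Z-score -1.80), and that of XM_011246835 had a log2 ratio of -0.94 (Z-score -1.44). The NM_001285811 and XM_011246835 probes overlap on the genome, so they are not independent readings. Another, dim Dtna probe was not well above background on CY, and it was 1.62-fold lower against the same reference level. No Dtna probe was called in any comparison, although 3 of its 4 flagged probes passed the ratio limit for CY, as did 11.1% of all kept probes on the lower side.

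After acrolein the 8 genes stayed near the NS level. None was called lower, where 1.75% of all genes were, and none was called higher, where 1.47% were. Their log2 ratios ran from -0.12 for Dag1 to 0.14 for Sgca, with a median of 0.07. The window SDs were smaller in this pair of arrays than for CY, 0.15 against 0.54 for the brightest Dmd probe.

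In the NAC + CY heart, Dmd, Utrn and Sgcd were again called lower than in NS, and no member was called higher. Here 2.95% of all genes were called lower and 2.96% higher. The other 5 genes lay between -0.15 for Dtna and 0.17 for Sgca. At a Z-score of 3, Dmd alone was called, by the probe at position 4942. All 3 comparisons with NS use the same NS array, so they are not independent of each other.

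Compared directly with CY, none of the 8 genes was called in NAC + CY, where 3.04% of all genes were called lower and 1.67% higher. The log2 ratio was positive for 7 of the 8, from 0.12 for Sgcb to 0.36 for Sspn, and -0.24 for Dmd. The Z-score of Sgcd in this comparison was 1.26 and that of Dmd -0.66. The median was 0.28, against 0.02 over all genes. CY compared with acrolein, a pair that does not involve the NS array, gave -1.46 for Dmd, -1.10 for Utrn and -1.68 for Sgcd, all called lower, where 2.96% of all genes were, and no member was called higher, where 3.54% were.

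**Figure D3:**
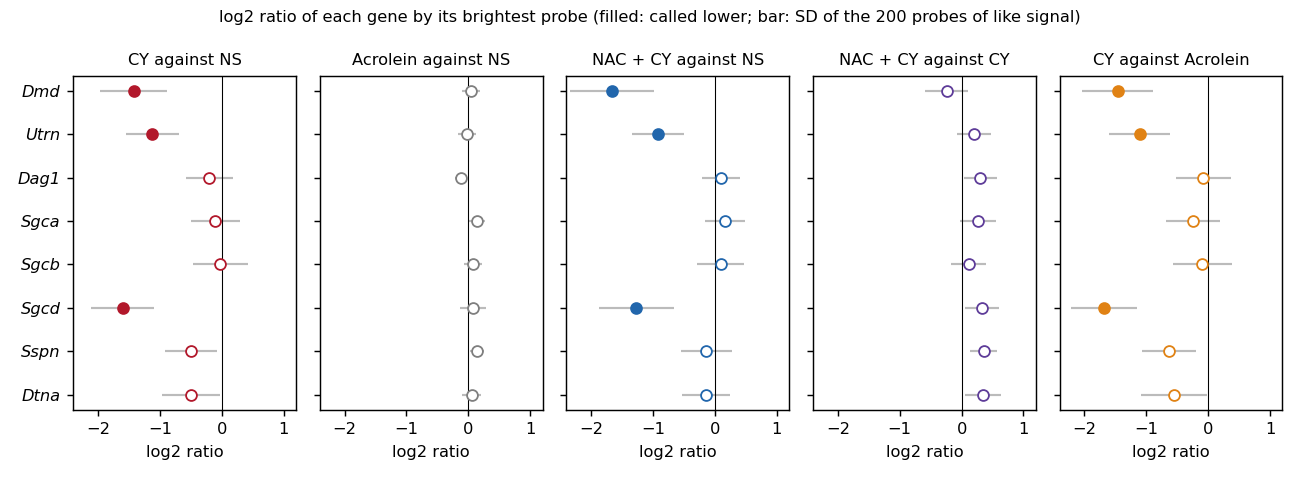
log2 ratio (horizontal axis) of the 8 genes (rows) by the brightest probe in the 5 comparisons (panels). Bars are the SD of the log2 ratios of the 200 probes nearest in signal, not an error between replicates, and filled points were called lower. Dmd, Utrn and Sgcd are filled in CY against NS, NAC + CY against NS and CY against acrolein, and no point is filled in the other panels.

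The 8 genes differ widely in length on the genome, a property that the rule for taking them did not use. In the RefSeq annotation of mouse assembly GRCm38.p6, Dmd spans 2390 kb (chrX:82814664-85205050), Sgcd 1018 kb (chr11:46971077-47989451), Utrn 488 kb (chr10:12382187-12869888) and Dtna 350 kb. Dag1 spans 59.1 kb, Sspn 33.4 kb, Sgcb 15.0 kb and Sgca 13.6 kb. The 3 genes called lower with CY are the 3 that span more than 400 kb. The 4 genes over 200 kb had a median log2 ratio for CY of -1.27 and the 4 genes under 100 kb one of -0.15, and for NAC + CY the medians were -1.10 and 0.10. For acrolein they were 0.05 and 0.11.

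This was examined after the values of the 8 genes had been seen, and it is a description with no test. Genes were counted here by their brightest probe. By that probe 2.82% of all genes were called lower for CY, 2.59% for NAC + CY and 1.29% for acrolein. Across 14695 protein-coding genes with a RefSeq span, out of 20719 detected gene names, the share called lower for CY was 2.05% for spans up to 10 kb, 2.44% from 50 to 100 kb, 6.87% from 100 to 200 kb, 14.5% from 200 to 400 kb and 31.3% over 400 kb, where 67 of 214 genes were called. The median log2 ratio went from 0.05 in the shortest class to -0.67 in the longest. For NAC + CY the share over 400 kb was 26.1% (55 of 211) with a median of -0.61. For acrolein it was 0.47% (1 of 215) with a median of 0.03. Without Dmd, Sgcd and Utrn, 64 of 211 genes over 400 kb (30.3%) were called lower for CY.

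Longer genes gave dimmer probes, with a median log2 signal of 7.81 over 400 kb against 9.06 up to 10 kb. With genes split by signal into dim, middle and bright classes of equal size, the share of genes over 400 kb called lower for CY was 19.4%, 40.0% and 41.7%, and the share of genes up to 10 kb was 3.04%, 1.54% and 1.57%. Spearman's rho between span and log2 ratio across genes, which share the arrays and are not independent, was -0.20 for CY (n = 14249), -0.16 for NAC + CY (n = 14282) and 0.01 for acrolein (n = 14135). With normexp background correction the median over 400 kb was -0.38 for CY and -0.33 for NAC + CY, and the shares called lower were 31.8% and 25.6%. Span and signal were the only properties of the genes set beside the ratios, and what underlies the pattern was not tested.

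**Figure D4:**
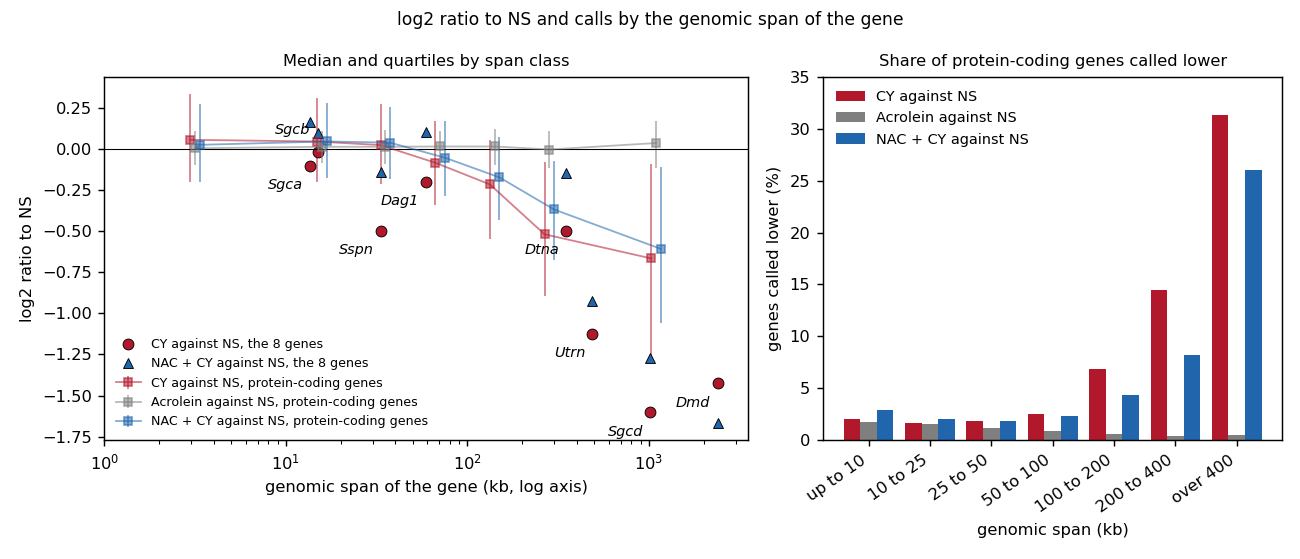
Left, log2 ratio to NS (vertical axis) against the genomic span of a gene in kb on a log axis, with medians and quartiles of protein-coding genes in 7 span classes (squares and bars) and the 8 genes for CY (circles) and NAC + CY (triangles). Right, percentage of genes called lower by the brightest probe in each span class. For CY the share rises from 2.05% up to 10 kb to 31.3% over 400 kb, the acrolein bars stay at or below 1.70%, and Dmd, Sgcd and Utrn lie at the lower right.

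Other genes of the pathway were counted in 6 lists, which are not complete, by their brightest probe, by which 2.82% of all genes were called lower and 3.38% higher for CY. Among 7 other proteins of the complex that were counted, none was called in either direction for CY. Epsilon-sarcoglycan (Sgce) had a log2 ratio of 0.44. Among 9 laminins and other matrix ligands, 2 were called lower for CY, with a list median of -0.31. These were Lama2, which encodes the laminin alpha chain that dystroglycan binds in muscle, at -1.19, and Hspg2, which encodes perlecan, at -1.06. For NAC + CY, where 2.59% of all genes were called lower by the brightest probe, Hspg2 was called at -1.02 and Lama2 stood at -0.88.

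The 16 genes counted for the enzymes that build the laminin-binding sugars of dystroglycan had a median log2 ratio of 0.05 for CY. Of 14 cytoplasmic and signalling partners, ankyrin-B (Ank2) was called lower for CY at -1.49 and for NAC + CY at -1.34. Of 13 membrane repair genes, dysferlin (Dysf) was lower for CY at -0.90 and annexin A1 (Anxa1) higher at 1.24. Of 17 genes of costameres, the vinculin and integrin attachments at the same membrane, talin 2 (Tln2) was lower at -1.50, Sorbs2 at -1.05 and Pdlim5 at -0.71 for CY, and Tln2 was lower at -1.46 for NAC + CY. The medians of these last 3 lists for CY were -0.15, -0.04 and -0.35. For acrolein no counted gene of the 6 lists was called by its brightest probe, and the background there was 1.29% lower and 1.08% higher.

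NAC + CY compared directly with CY was read against a background in which 2.82% of all genes were called lower and 1.54% higher by the brightest probe. The list genes called lower in that comparison were Anxa1 at -1.13, Myof at -0.91, Anxa2 at -0.80 and the water channel Aqp4 at -0.89. Against acrolein, CY gave lower calls at -1.38 for Ank2, -1.35 for Tln2, -1.22 for Sorbs2, -1.17 for Lama2, -1.09 for Hspg2, -0.98 for Lama5 and -0.97 for Dysf, with Anxa1 higher at 1.51, and 2.67% of all genes were called lower and 3.28% higher by the brightest probe.

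The genes named from these lists as called lower for CY were Lama2 (636 kb), Ank2 (579 kb), Tln2 (417 kb), Sorbs2 (320 kb), Dysf (203 kb), Pdlim5 (156 kb) and Hspg2 (102 kb), while Anxa1, called higher, spans 17.2 kb. The lists are not complete, so no share by span is drawn from them, and the shares of all protein-coding genes were 6.87%, 14.5% and 31.3% in the 3 longest classes. Genes of the lists over 200 kb that were not called had log2 ratios of -0.55 (Ank3, 494 kb), -0.94 (Sntb1, 271 kb) and 0.37 (Dtnb, 213 kb), and these were named after their values were seen.

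**Figure D5:**
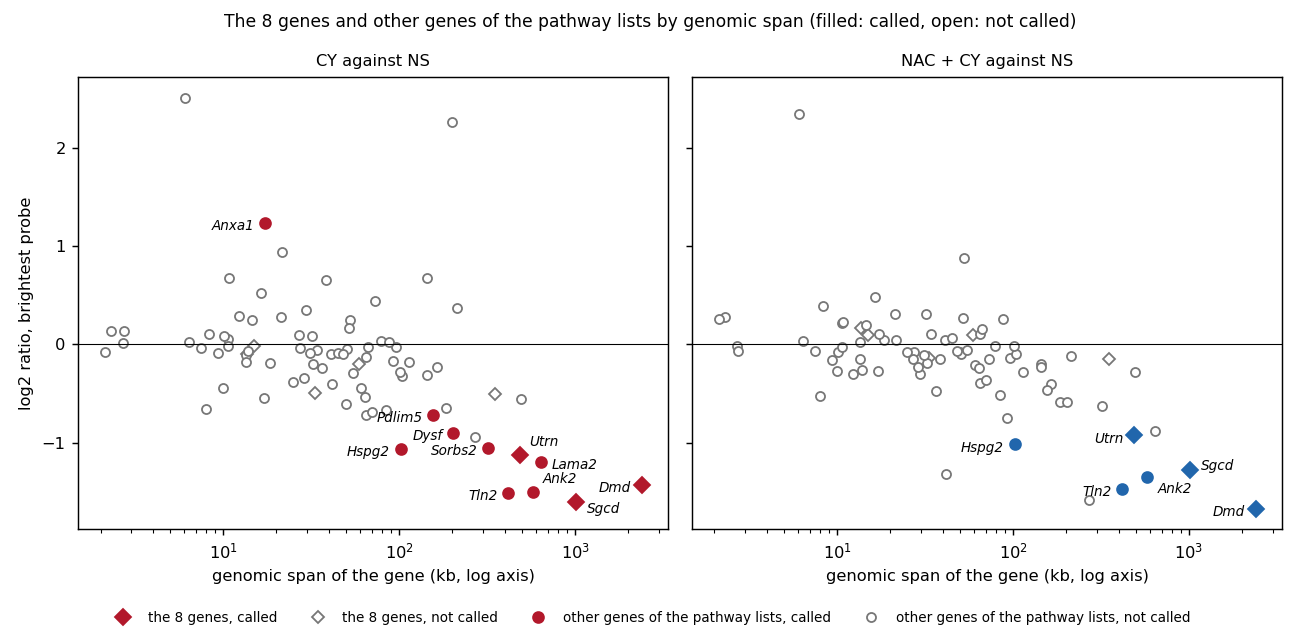
log2 ratio by the brightest probe (vertical axis) against genomic span in kb on a log axis, for the 8 genes (diamonds) and other genes of the 6 pathway lists (circles), in CY against NS (left) and NAC + CY against NS (right). Filled and named points were called. For CY the plotted points called lower lie above 100 kb, and Anxa1, at 1.24, is the 1 plotted point called higher.

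Other cell types differed between the arrays, and the part of this in the values above was not tested. Markers were counted by their brightest probe, by which 2.82% of all genes were called lower and 3.38% higher for CY. Of the 14 cardiomyocyte markers, 4 were called lower for CY by that probe and 5 by any kept probe. The log2 of the summed signals of all 14 was 21.16 (NS), 20.91 (CY), 21.17 (acrolein) and 21.03 (NAC + CY). In such a sum, here and below, the brightest genes of a list count most. Smooth muscle, which also makes dystrophin and delta-sarcoglycan, had 3 of 13 markers lower and 2 higher for CY. The log2 of the summed signals of the 13 was 15.76, 15.17, 15.78 and 15.22. All 7 atrial markers and 8 of 9 mesothelial markers were higher for CY. The log2 of the summed signals was 19.64 against 18.23 on NS for the atrial list and 13.05 against 11.26 for the mesothelial list. Also higher for CY were 5 of 8 red blood cell and platelet markers and 2 of 10 fat markers. The 5 were all platelet genes, at log2 ratios of 1.05 to 4.42, while the red blood cell genes lay between -0.51 and 0.04. Of 10 liver markers only 5 were flagged on CY or NS. Of these, 3 were called higher, and their log2 ratios ran from -0.63 to 2.98 over the 5. The acrolein array differed too, with 8 of 10 fat and 8 of 9 mesothelial markers called lower than on NS, where 1.29% of all genes were. For NAC + CY, 5 of 6 atrial, 8 of 10 liver and 7 of 10 fat markers were higher, where 2.96% of all genes were by any kept probe. The liver markers had a median log2 ratio of 2.97 there and reached 9.67. Lower for NAC + CY were 5 of 11 fibroblast markers and 3 of 7 red blood cell and platelet markers, the 3 being red blood cell genes. By the brightest probe 2.59% of all genes were called lower there. The controls Actb and Gapdh had log2 ratios of 0.02 and 0.05 for CY and -0.33 and 0.06 for NAC + CY.

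The genes whose log2 ratios to NS were nearest to those of the brightest Dmd probe, by Euclidean distance over the 3 comparisons among 17843 genes above background on all arrays, were AK080285 (distance 0.07), Gm20753, Prrg1, the glycerol channel Aqp7 and the transcription factor Ets1 (0.21). For Sgcd they were Lrba (0.11), the beta-1 adrenergic receptor Adrb1, Dock1, the smooth muscle actin Acta2 and the B cell surface protein Cd72 (0.17). Of the neighbours of Dmd, Prrg1 spans 134 kb, Ets1 122 kb and Aqp7 15.2 kb, and AK080285 and Gm20753 had no span. Of the neighbours of Sgcd, Lrba spans 559 kb and Dock1 503 kb, while Adrb1, Cd72 and Acta2 span 3.03, 7.38 and 15.2 kb. Short genes thus stood among those nearest to Sgcd too.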

How the data were processed

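Heart RNA of mice was labelled with Cy3 and hybridised to Agilent 8 × 60 K mouse arrays. The authors extracted the spots with Agilent Feature Extraction (10.7.1.1 in the file headers, 9.5.1.1 in the submitters' processing notes). As deposited, the intensity of a spot is its signal after background subtraction and before normalisation. The authors' value table of the series, also deposited, holds linear intensity values of the same arrays with a median of 13.9 on every array. The study's methods name quantile normalisation with preprocessCore.

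Here 59305 spots were log2-transformed, quantile-normalised over the 4 arrays and averaged per probe. A present flag (positive and significant, well above background, no saturation or outlier flag) was set for 30409 probes on at least 1 array. Probes well above background were 47.1% (NS), 49.6% (CY), 50.0% (acrolein) and 49.9% (NAC + CY) of all. Repeated spots of a probe had an SD of 0.06 to 0.08 log2 units. The criteria for calls follow the study's methods, which do not name the window of 200 probes.

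Member probes were taken by the file's gene name. Other genes were named through the RefSeq table of GRCm38.p6, which also gave the spans, and probe positions are those of the files on mm9. The named genes are the 8 members, up to 4 called genes of each pathway list with the largest log2 ratios, Sgce and Lama2, the 5 genes most alike Dmd and Sgcd, and 2 controls. The members and lists were chosen with earlier results of these data known, and exceptions are marked in the text. Some genes of the pathway lists, called ones among them, are not reported here and were left out of the list counts, medians and plot. The calling was tested on simulated data with the noise of acrolein against NS. The median window SD was 0.22 there and 0.58 for CY against NS, so the test does not cover calls at the CY noise. Alternatives covered normalisation, background, filter, window, limits, value table and probe choice. Tools were Python 3.11.15 with pandas 2.3.3, numpy 2.4.6, matplotlib 3.10.9 and scipy 1.17.1, and limma 3.58.1 for the normexp background correction (offset 50).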

Additional observations from a re-analysis of the deposited data

How the results depend on the processing

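Of 195 recomputed counts and medians of the 8 genes, 188 stayed within 1.5 times the count or within the median window SD. No median changed its sign. That SD was 0.58 for CY against NS, where the median of the 8 genes was -0.50, so the margin was wide. Settings of filter, window and limits can change the calls of the 8 genes but not their medians or log2 ratios. At a Z-score of 3, 1 gene was called lower for CY against NS (Sgcd), 1 for NAC + CY against NS (Dmd, by the probe at position 4942) and 1 for CY against acrolein (Sgcd). With 1 SD over all probes in place of the window, 1 was called lower for NAC + CY against NS (Dmd) and 2 for CY against NS (Dmd and Sgcd). By the ratio alone, 1 gene was called higher for CY and 1 for NAC + CY against NS, both by the dim ENSMUST00000128983 probe of Dmd, and 5 were called lower for CY against acrolein. Of 520 recomputed log2 ratios of single genes 499 stayed within the window SD or kept their call, 18 kept their direction but lost the call, 1 gained it and 2 uncalled ones moved by more than the window SD. The sign changed in 2, both uncalled and for acrolein by the median over the probes: Utrn from -0.02 to 0.14 and Dtna from 0.06 to -0.07. Utrn lost its call most widely, for CY against NS also by the median over its probes (-1.12), and for NAC + CY with normexp (-0.88), a ratio of 2 and the median over its probes (-0.81). The scalings moved the median of all genes by at most 0.03 log2 units. The comparison by gene span was added after the data were seen. No paired analysis was possible because each condition has 1 array and the labels carry no replicate numbers, and for the same reason no replicate could be left out.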
